A study of Oryctolagus cuniculus with 24 samples.

Results

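Glycolysis and hypoxia-response genes were followed in primary keratocytes of the rabbit cornea, cells that make and maintain its stroma, as a named list of 34 genes. Members were found by their gene name in the deposited count table, which lists 23428 genes. By name 33 of the 34 were found, and 32 of these had enough reads to be tested. PFKL, the liver form of phosphofructokinase, was not found by name, and CA9 had too few reads for a test.

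RNA came from first-passage cells cultured for 6 days on collagen-coated glass, in 3 conditions with 8 libraries each. The control cells stayed in defined serum-free medium throughout. A second group received TGF-β1 at 5 ng/mL in the same serum-free medium, added on day 1 and again on day 3, and the labels call it the myofibroblast condition. The remaining group, called the fibroblast condition, was kept serum-free until day 3 and then given DMEM with 10% fetal bovine serum (FBS). Base medium and length of exposure thus differ together with serum in the FBS cells. The labels do not say that the 8 libraries of a condition came from separate animals or cultures, so p-values measure only the spread between these libraries, and that spread may be technical.

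Glycolysis splits glucose into pyruvate in the cytosol and yields ATP without oxygen, and lactate dehydrogenase then turns pyruvate into lactate so that the pathway can go on. Hypoxia-inducible factors are transcription factors whose alpha subunits are marked by prolyl hydroxylases and destroyed while oxygen is present. When oxygen is low they persist and switch on many glycolytic genes together with genes for angiogenesis, mitophagy and pH control. The corneal stroma has no blood vessels, and its keratocytes are quiescent until injury.

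Total counts per library ran from 15410285 to 22528261. Levels are given as CPM, counts of a gene divided by the size of its library and put on a common scale. Sizes were corrected by TMM, a trimmed mean of log ratios, and levels of different genes are compared only as FPKM, which also divides by gene length. The threshold for calling a member higher or lower was an adjusted p under 0.05 in edgeR's quasi-likelihood test over 13308 genes. Libraries numbered 5 to 8 in the labels (replicates 1 to 4, set 1) stood apart from those numbered 9 to 12 (replicates 5 to 8, set 2) along the third principal component, which held 5.75% of the variance. What the sets are is not said in the labels. FBS replicates 5 and 6 also stood apart for several members, with 1824 and 1730.5 CPM of PKM against 1020.1 to 1397 in the other 6 FBS libraries. Summed levels of 8 keratocyte markers were 61691 to 98442 CPM in serum-free medium, 14877 to 25179 with TGF-β1 and 2107 to 4416 with FBS. Of these AQP1 alone was higher with TGF-β1, with means of 584, 1568 and 243 CPM in that order. Summed levels of 4 myofibroblast markers were 2.47 to 16.3, 405 to 1042 and 415 to 1090 CPM in the same order. By mean, ACTA2 (2.92, 231 and 479 CPM) and MYH11 (1.93, 5.54 and 7.81) were highest with FBS. TAGLN (3.40, 411 and 258) and ACTG2 (0.0492, 4.53 and 2.60) were highest with TGF-β1. Markers of corneal epithelium summed to at most 1.24 CPM in any library, with KRT12 at 0 throughout. PTPRC, the general leukocyte marker, did not exceed 0.353 CPM, although the immune list as a whole ran from 3.57 to 6.19, from 6.18 to 9.85 and from 12.1 to 26.7 CPM. Means of CD68 rose over the conditions (2.35, 6.63 and 18.3), while those of CD74 were lower in both treatments (0.998, 0.0742 and 0.109). Corneal endothelial markers summed to 47.4 to 68.4, 48.6 to 76.9 and 6.27 to 11.97 CPM, with ZP4 at 0 throughout and TMEM178A at means of 53.9, 60.3 and 1.85. SLC4A11, the remaining gene of that list, went the other way with FBS, at means of 1.499, 0.823 and 6.93 CPM. The lower sum with FBS thus came from TMEM178A alone. Vascular endothelial markers summed to 246 to 368, 52.1 to 113 and 13.8 to 19.0 CPM. KDR was at means of 305, 72.9 and 13.5 and CDH5 at 13.1, 6.09 and 1.93, while PECAM1 stayed at or below 1.30. The part of cell composition in the results below was not tested, and in bulk RNA fewer cells of a type and less RNA per cell cannot be told apart.

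TGF-β1 was accompanied by higher transcripts of most glycolytic enzymes among the members, of PFKFB3, of HIF1A and of EGLN3, and by lower transcripts of FBP1, FBP2, STC2 and PPP1R3C. Of the 32 members tested, 15 were called higher with TGF-β1 than in serum-free medium and 9 lower, beside 31.2% and 33.1% of all genes tested. The libraries of the conditions did not overlap for 12 higher and 5 lower members, beside 33.9% of all genes in either direction. The median log2 fold change of the members was 0.27, against -0.03 over all genes.

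With FBS members changed in both directions. PGAM1, PKM, HK2 and STC1 were higher and LDHA, ALDOC, FBP1, FBP2 and BNIP3L lower than in serum-free medium. Here 15 members were called higher and 15 lower (46.9% each), near the 39.5% and 40.5% of all genes. An even split was thus not particular to these members. Without FBS replicates 5 and 6 the calls were 15 higher and 14 lower. Non-overlapping libraries were seen for 14 higher and 10 lower members, beside 52.9% of all genes. The medians were -0.05 for the members and -0.04 for all genes.

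Set directly against each other, TGF-β1 cultures had more transcript than FBS cultures of LDHA, ALDOC, EGLN3, BNIP3L, PFKFB3 and both fructose bisphosphatases, and less of STC1, EPAS1, PGAM1 and ADM. In this comparison 17 members were called higher with TGF-β1 and 10 lower, beside 36.9% and 36.4% of all genes. When libraries were scaled by total counts instead of TMM sizes the split was 14 higher and 13 lower, and without FBS replicates 5 and 6 it was 16 and 8. The groups did not overlap for 13 higher and 6 lower members, beside 46.2% of all genes. Total-count scaling moved the median over all genes to -0.17 for TGF-β1 against serum-free, 0.21 for FBS against serum-free and -0.39 for TGF-β1 against FBS, so all changes given here are relative to TMM sizes. The count for each comparison is a description of genes chosen with earlier results known. FBP1 and STC1 passed the filter on low counts through a single condition, and ALDOC, FBP2 and PPP1R3C through only part of the conditions. Their p-values against conditions where they are low are descriptive only, and the counts above include them.

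**Figure D1:**
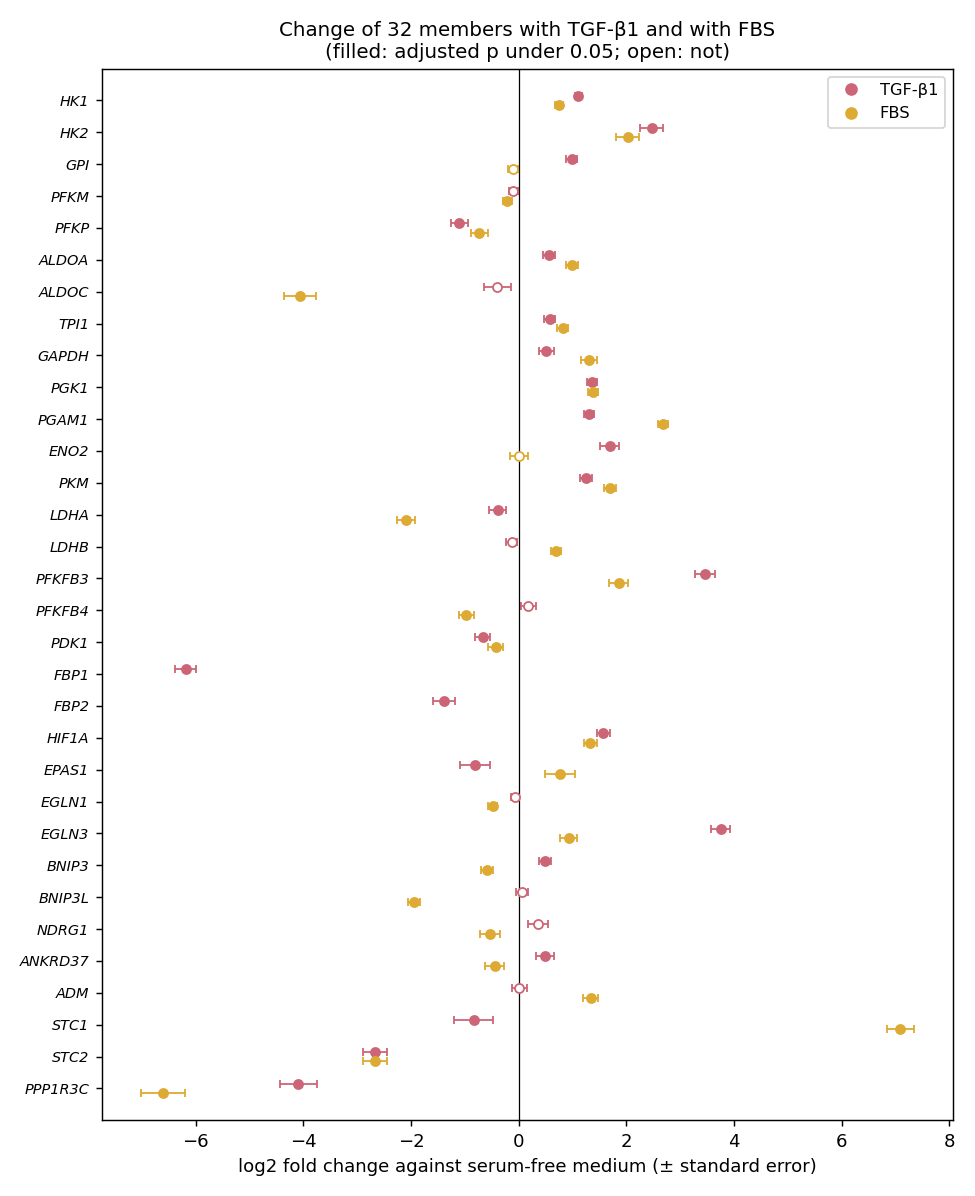
Log2 fold change against serum-free medium of 32 members (rows) with TGF-β1 (red) and FBS (yellow), from 8 libraries per condition. Points are estimates, bars are standard errors, and filled points passed at an adjusted p under 0.05. FBP1 and FBP2 have no FBS point because they had 1 and 2 reads there. EGLN3 and PFKFB3 lie farthest to the right for TGF-β1, and STC1 for FBS at 7.09. The PFKM point for FBS (-0.21) changes sign with total-count scaling.

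Hexokinases trap glucose in the cell as glucose phosphate, and both measured forms rose in either treatment. HK2, the inducible form, lay between 6.98 and 18.3 CPM in serum-free medium (median 11.8), between 49.7 and 84.3 with TGF-β1 (median 65.8) and between 25.8 and 61.7 with FBS (median 51.5). Every treated library was above every serum-free library, while the treated groups overlapped. The log2 fold change was 2.47 ± 0.22 (SE) with TGF-β1 (adjusted p = 1.63e-10) and 2.02 ± 0.21 with FBS (adjusted p = 2.22e-09). The TGF-β1 effect on HK2 was 1.71 in set 1 and 3.34 in set 2, with a set-by-treatment term of 1.62 (adjusted p = 2.85e-07). The level under TGF-β1 was called higher than under FBS (0.45, adjusted p = 0.0483), but the direction was opposite in set 1 (-0.20, adjusted p = 0.0264) and positive in set 2 (1.11). That call was lost when any of TGF-β1 replicates 5 to 8, FBS replicates 5 to 8 or serum-free replicates 4 and 5 was left out (0.35 to 0.45), without FBS replicates 5 and 6 together (0.28, adjusted p = 0.204), and with total-count scaling (0.05, adjusted p = 0.827). HK1, the form found in most tissues, was at 148 ± 9.49 CPM (SD, n = 8) in serum-free medium, 319 ± 34.8 under TGF-β1 and 248 ± 20.0 with FBS. Its log2 rise was 1.11 with TGF-β1 (adjusted p = 4.31e-13) and 0.75 with FBS (adjusted p = 3.51e-10), and its excess under TGF-β1 over FBS (0.36, adjusted p = 5.79e-05) turned to -0.04 with total-count scaling. By length, HK1 stayed the more abundant form, with 38.5 FPKM against 2.72 for HK2 in serum-free medium and 83.3 against 15.1 with TGF-β1.

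GPI, which converts glucose phosphate to fructose phosphate, nearly doubled with TGF-β1, from 232 ± 26.5 to 459 ± 27.6 CPM (log2 0.99 ± 0.10, adjusted p = 1.89e-09), without overlap of the libraries. With FBS it was at 216 ± 42.1 CPM and was not called (-0.10, adjusted p = 0.331). It was called lower in set 1 alone (-0.22, adjusted p = 0.00271) and without FBS replicates 5 and 6 (-0.23, adjusted p = 0.0117).

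Phosphofructokinase catalyses the committed step, and its platelet form PFKP fell in both treatments. PFKP averaged 145 ± 13.4 CPM in serum-free medium, 67.5 ± 25.9 under TGF-β1 and 87.3 ± 8.65 with FBS. All treated libraries lay below all serum-free libraries, with log2 changes of -1.10 (adjusted p = 2.01e-06) and -0.73 (adjusted p = 0.00022). The fall with TGF-β1 was -0.74 in set 1 and -1.65 in set 2, a gap that passed as a set-by-treatment term (adjusted p = 9.01e-07). Against FBS, TGF-β1 cultures were called lower in PFKP (-0.37, adjusted p = 0.0440), but set 1 went the other way (0.18, adjusted p = 0.0280), set 2 gave -1.12, and leaving out any of TGF-β1 replicates 5 to 8 or FBS replicates 4 to 8 ended the call (-0.29 to -0.37). PFKM, the muscle form, was at 83.3 ± 5.96, 77.6 ± 10.3 and 71.9 ± 8.63 CPM in the same order of conditions. With TGF-β1 it was not called (-0.10, adjusted p = 0.295), though it was with total-count scaling (-0.25, adjusted p = 0.0115) and in set 2 alone (-0.25, adjusted p = 0.0213). Its decrease with FBS was small (-0.21, adjusted p = 0.0231), turned to 0.04 with total-count scaling, and was lost without serum-free replicate 4 or 5 or FBS replicate 6 or 7 (-0.16 to -0.19), without FBS replicates 5 and 6 (-0.18), in set 1 alone (-0.11) and without the filter on low counts (-0.15).

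Aldolase splits the fructose bisphosphate, and its forms went in opposite directions with FBS. ALDOA, the muscle and general form, rose from 491 ± 52.4 CPM in serum-free medium to 730.1 ± 30.8 with TGF-β1 (log2 0.57, adjusted p = 7.0e-05) and 979.6 ± 243 with FBS (log2 1.00, adjusted p = 7.14e-09). ALDOC, the brain form, lay between 7.53 and 17.0 CPM in serum-free medium (median 11.5), between 4.68 and 13.0 with TGF-β1 (median 9.22) and between 0.307 and 1.34 with FBS (median 0.572). No FBS library reached the lowest library of either other condition. ALDOC fell by 4.06 ± 0.30 on the log2 scale with FBS (adjusted p = 2.60e-12) and was not called with TGF-β1 (-0.40, adjusted p = 0.162), though it was in set 2 alone (-0.70, adjusted p = 0.00701). TPI1, which interconverts the aldolase products, rose from 190.0 ± 24.4 to 284 ± 24.3 CPM with TGF-β1 and to 335 ± 64.2 with FBS (log2 0.58 and 0.82, adjusted p = 1.87e-05 and 4.45e-08). Its deficit under TGF-β1 relative to FBS (-0.24, adjusted p = 0.0353) was 0.01 in set 1 and was lost without TGF-β1 replicate 2, 5, 7 or 8 or FBS replicate 5 or 6 (-0.16 to -0.23), and without FBS replicates 5 and 6 (-0.10).

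In the second, energy-yielding stretch of the pathway all 5 listed members rose with TGF-β1 and 4 of 5 with FBS, beside 31.2% and 39.5% of all genes called higher. Of the enolases only ENO2 is a member. ENO1, described further below, was not called with TGF-β1 and rose with FBS, the reverse of ENO2. GAPDH, which makes NADH and is widely used as a reference transcript, lay between 296 and 471 CPM in serum-free medium (median 373), between 462 and 613 with TGF-β1 (median 543) and between 698 and 1317 with FBS (median 892). The FBS libraries were above all others, whereas the TGF-β1 and serum-free ranges overlapped. GAPDH rose by 0.51 ± 0.14 in log2 with TGF-β1 (adjusted p = 0.00309) and by 1.31 ± 0.15 with FBS (adjusted p = 6.23e-09), and TGF-β1 was lower than FBS (-0.80, adjusted p = 1.95e-05). GAPDH lies on chromosome 8 at 32580489 to 32584701, near TPI1 (32890140 to 32893373) and ENO2 (32918474 to 32925551), by the positions in the deposited table. The sources used here do not give its genome build.

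PGK1 and PKM make the ATP of this stretch. PGK1 rose to a similar level in both treatments, from 171 ± 23.2 CPM to 442 ± 68.7 with TGF-β1 and 446 ± 26.6 with FBS, and the direct difference was -0.01 (adjusted p = 0.905). PGK1 was called higher with TGF-β1 than with FBS in set 1 (0.14, adjusted p = 0.0448) and lower in set 2 (-0.21, adjusted p = 0.0102), and the set-by-treatment term passed (adjusted p = 0.00404). With total-count scaling it was called lower (-0.41, adjusted p = 7.65e-05). PKM ran from 344 to 504 CPM in serum-free medium (median 399), from 916 to 1042 with TGF-β1 (median 977) and from 1020.1 to 1824 with FBS (median 1274). Both treatments were above every serum-free library, and the treated groups overlapped at their edges. Its log2 rise was 1.25 ± 0.11 with TGF-β1 (adjusted p = 2.31e-10) and 1.70 ± 0.11 with FBS (adjusted p = 2.13e-13). TGF-β1 was lower than FBS by -0.45 (adjusted p = 0.000702), though in set 1 alone the difference was -0.13 (adjusted p = 0.0530).

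PGAM1, which moves the phosphate before the enolase step, showed the largest rise with FBS among the glycolytic enzymes listed. It lay between 68.0 and 111 CPM in serum-free medium (median 100.005), between 207 and 271 with TGF-β1 (median 236) and between 529 and 737 with FBS (median 604). The 3 ranges did not overlap. The log2 change was 1.31 ± 0.09 with TGF-β1 (adjusted p = 3.58e-12) and 2.68 ± 0.10 with FBS (adjusted p = 1.03e-18), with -1.37 between TGF-β1 and FBS (adjusted p = 6.19e-13). ENO2, the neuronal enolase, lay between 2.98 and 6.59 CPM in serum-free medium (median 4.98), between 11.2 and 20.9 with TGF-β1 (median 15.9) and between 3.30 and 7.05 with FBS (median 4.39). Every TGF-β1 library exceeded every other library. ENO2 rose by 1.69 ± 0.17 in log2 with TGF-β1 (adjusted p = 2.75e-09), while with FBS the change was 0.00 ± 0.17 (adjusted p = 0.988).

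**Figure D2:**
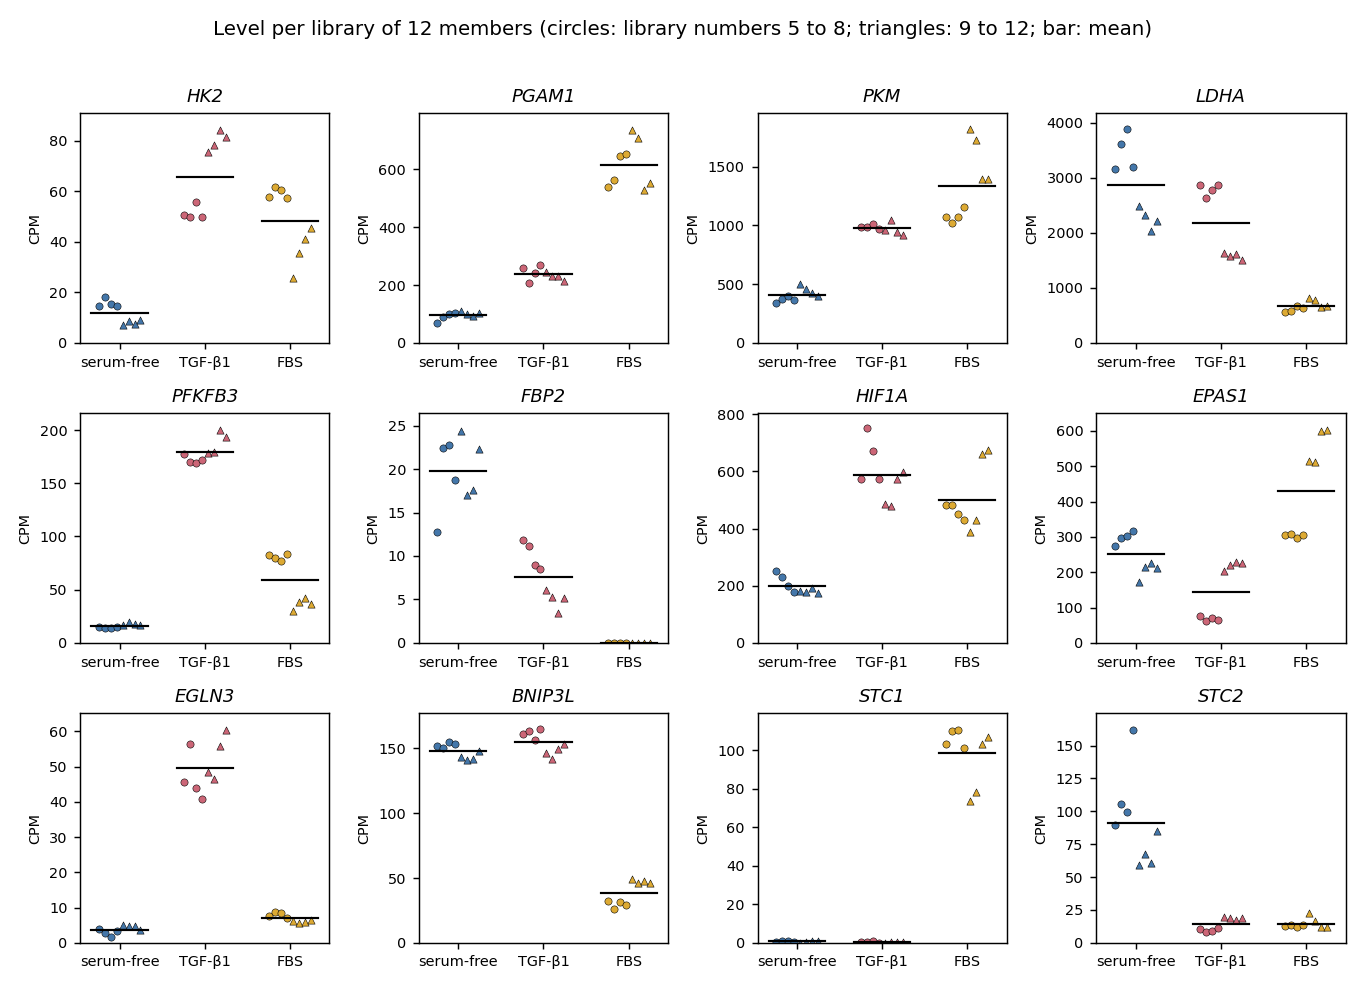
CPM per library of 12 members in 3 conditions, with 8 points per condition and a bar at the mean. Circles are library numbers 5 to 8 and triangles 9 to 12. LDHA is lowest with FBS (567 to 824 CPM), PGAM1 is highest with FBS, EGLN3 and PFKFB3 are highest with TGF-β1, and the EPAS1 circles with TGF-β1 (60.7 to 75.1 CPM) lie far below the triangles.

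Lactate dehydrogenase is a tetramer of LDHA and LDHB chains, of which the first favours lactate formation in textbook accounts. LDHA was the most abundant of the 15 glycolysis and lactate members by FPKM in serum-free medium, with 1606 ± 404 FPKM, or 49.98 ± 7.17% of their summed FPKM. That share was 31.5 ± 5.80% with TGF-β1 and 9.70 ± 0.627% with FBS. The sum itself was 3171 ± 368 FPKM in serum-free medium, 3820 ± 440 under TGF-β1 and 3896 ± 679 with FBS, ranges that overlapped with the sets pooled. In set 1 it was 3183 to 3748, 3975 to 4370 and 3199 to 3547 FPKM in that order. In set 2 it was 2696 to 3139, 3323 to 3531 and 3969 to 5007 FPKM. By FPKM, TGF-β1 thus lay above serum-free medium within each set, and FBS did so in set 2 only. As a percent of total counts the sum was 0.476 to 0.604, 0.505 to 0.682 and 0.636 to 0.938. By that measure FBS lay above serum-free medium in each set, whereas TGF-β1 overlapped it in each. In set 1 the lowest TGF-β1 library was at 0.6038 and the highest serum-free library at 0.6042. In set 2 TGF-β1 ran from 0.505 to 0.549 and serum-free medium from 0.476 to 0.560.

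In CPM, LDHA lay between 2027 and 3881 in serum-free medium (median 2821), between 1513 and 2865 with TGF-β1 (median 2129) and between 567 and 824 with FBS (median 653). FBS libraries were below all others. The fall with FBS was -2.09 ± 0.17 in log2 (adjusted p = 1.14e-11), at -2.49 in set 1 and -1.63 in set 2 (set-by-treatment term, adjusted p = 6.75e-06). With TGF-β1 the decrease was small (-0.39 ± 0.16, adjusted p = 0.0372). It held in each set alone (-0.31, adjusted p = 0.00113, and -0.51, adjusted p = 0.000148), yet leaving out any of serum-free replicates 1 to 4 or TGF-β1 replicates 5 to 8 ended the pooled call (-0.31 to -0.37, adjusted p = 0.0606 to 0.0934). LDHB lay between 225 and 340.4 CPM in serum-free medium (median 305), between 236 and 308 with TGF-β1 (median 268) and between 409 and 575 with FBS (median 461). It was higher with FBS than in every other library (0.69 ± 0.10, adjusted p = 3.74e-07) and not called with TGF-β1 (-0.13, adjusted p = 0.245). The TGF-β1 value of LDHB was called lower with total-count scaling (-0.27, adjusted p = 0.00902) and in set 1 alone (-0.19, adjusted p = 0.0128).

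LDHA therefore made up 87.9 ± 0.969% of LDHA and LDHB FPKM in serum-free medium, 85.5 ± 2.50% under TGF-β1 and 51.7 ± 0.851% with FBS. The log2 ratio of the counts fell by 2.77 with FBS, and the groups did not overlap (exact permutation test, two-sided, p = 0.000155, the smallest that 8 against 8 allows, and 0.000247 when adjusted over the 27 ratio tests). With TGF-β1 the ratio fell by 0.29 (exact permutation test, adjusted p = 0.0356). That call was lost without serum-free replicate 2 or 3 or any of TGF-β1 replicates 5 to 8 (-0.24 to -0.27), and in set 1 alone (-0.12, exact permutation test, adjusted p = 0.119). The table also lists 2 numbered rows described as the same protein as LDHA, LOC100351519 at 275, 219.7 and 70.7 CPM and LOC100355262 at 20.1, 14.9 and 4.29 CPM in the order serum-free, TGF-β1, FBS. The sources used here do not say how reads were divided between such near-identical rows. With their counts summed, LDHA changed by -0.38, -2.08 and 1.70 in the 3 comparisons. LOC100348124, a similar row for PGK1, was at 3.54, 8.35 and 9.76 CPM, the same direction as PGK1.

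The enzymes that set the flux were not moved alike. PFKFB3 makes the sugar bisphosphate that activates phosphofructokinase. It lay between 14.3 and 19.9 CPM in serum-free medium (median 15.8), between 169 and 200.2 with TGF-β1 (median 178) and between 30.4 and 84.0 with FBS (median 59.3). The 3 ranges were fully separate. Its log2 rise was 3.47 ± 0.19 with TGF-β1 (adjusted p = 1.52e-14) and 1.86 ± 0.18 with FBS (adjusted p = 4.72e-10). In the FBS libraries set 1 averaged 80.9 and set 2 36.9 CPM, and the FBS effect was 2.47 and 1.05 in the sets (set-by-treatment term, adjusted p = 1.21e-09). PFKFB4, a related enzyme, was at 18.2 ± 2.85, 20.7 ± 2.22 and 9.28 ± 2.66 CPM and was called lower with FBS (-0.98, adjusted p = 4.75e-07) but not with TGF-β1 (0.18, adjusted p = 0.256). PFKFB4 made up 60.3% of the FPKM of this pair in serum-free medium, 13.6% under TGF-β1 and 20.2% with FBS.

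PDK1, a kinase that turns off pyruvate dehydrogenase, was lower in both treatments. Its level was 43.7 ± 11.9 CPM in serum-free medium, 27.4 ± 5.33 under TGF-β1 (-0.67, adjusted p = 0.000256) and 32.5 ± 3.84 with FBS (-0.43, adjusted p = 0.00875). The FBS decrease was -0.67 in set 1 and -0.08 in set 2. It was -0.33 without FBS replicates 5 and 6 (adjusted p = 0.0508) and -0.16 with total-count scaling (adjusted p = 0.276). Between TGF-β1 and FBS it was not called (-0.24, adjusted p = 0.133), but it was with the replicate block (-0.26, adjusted p = 0.0134), with set as a covariate (-0.26), in set 2 alone (-0.40, adjusted p = 0.0122) and with total-count scaling (-0.65, adjusted p = 0.000115).

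Fructose bisphosphatases reverse the phosphofructokinase step in gluconeogenesis, FBP1 in liver and kidney and FBP2 in muscle. FBP1 lay between 21.0 and 27.9 CPM in serum-free medium (median 24.5) and between 0.130 and 0.520 with TGF-β1 (median 0.360), and 7 of the 8 FBS libraries had no read. FBP1 fell by 6.19 ± 0.20 in log2 with TGF-β1 (adjusted p = 3.34e-19). Because FBP1 passed the filter on low counts only through serum-free medium, that p-value is descriptive only. A single FBP1 read in all FBS libraries against 3625 in serum-free medium gave a ratio of 4275 (95% interval 767 to 168902, counting error only), and against TGF-β1 a ratio of 57.5 (9.76 to 2326). FBP2 lay between 12.7 and 24.4 CPM in serum-free medium (median 20.5), between 3.40 and 11.8 with TGF-β1 (median 7.28) and between 0 and 0.0448 with FBS. The ranges were separate, with FBP2 down by -1.39 ± 0.21 with TGF-β1 (adjusted p = 1.72e-06). That fall was -0.92 in set 1 and -2.04 in set 2 (set-by-treatment term, adjusted p = 0.00965). The 2 FBP2 reads under FBS gave ratios of 1741 for serum-free medium (95% interval 482 to 14385) and 666 for TGF-β1 (184 to 5508). FBP2 (73551302 to 73578847) and FBP1 (73587933 to 73620117) are neighbours on the minus strand of chromosome 1 in the deposited table.

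Of the hypoxia-inducible factor genes themselves, HIF1A rose in both treatments and EPAS1, which encodes the related alpha subunit abundant in endothelium, did not move alike. HIF1A lay between 174 and 253 CPM in serum-free medium (median 187), between 479.6 and 751 with TGF-β1 (median 574) and between 386 and 674 with FBS (median 465). All treated libraries were above all serum-free libraries. Its log2 rise was 1.57 ± 0.12 with TGF-β1 (adjusted p = 1.72e-11) and 1.33 ± 0.12 with FBS (adjusted p = 1.40e-10). The direct difference was not called (0.24, adjusted p = 0.0729), but it was in set 1 alone (0.48, adjusted p = 0.000293; set 2 -0.01, adjusted p = 0.955), with the replicate block (0.24, adjusted p = 0.0322) and without TGF-β1 replicate 5 or 6 or FBS replicate 7 or 8 (0.27 to 0.31), and with total-count scaling it was -0.16. Transcript level says nothing of the protein, which is controlled mainly by its breakdown.

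EPAS1 lay between 174 and 316 CPM in serum-free medium (median 250.3), between 60.7 and 228 with TGF-β1 (median 139) and between 297 and 604 with FBS (median 409.9). Pooled over sets it was lower with TGF-β1 (-0.81 ± 0.28, adjusted p = 0.0133) and higher with FBS (0.77 ± 0.28, adjusted p = 0.0130). The sets did not share these changes. With TGF-β1 the change was -2.12 in set 1, where the mean went from 297 to 68.1 CPM, and 0.09 in set 2 (adjusted p = 0.400), where it went from 207 to 219 CPM (set-by-treatment term 2.21, adjusted p = 7.13e-13). With FBS EPAS1 changed little in set 1 (0.04, adjusted p = 0.612), against 1.44 for set 2 (set-by-treatment term, adjusted p = 1.02e-09). TGF-β1 cultures were below FBS cultures in both sets (-2.16 and -1.35, pooled -1.58, adjusted p = 1.69e-05). EPAS1 held 37.5% of the summed EPAS1 and HIF1A FPKM in serum-free medium, 10.6% under TGF-β1 and 28.8% with FBS. The log2 ratio fell by 2.58 with TGF-β1, with no overlap (exact permutation test, adjusted p = 0.000247). With FBS it fell by 0.58 (exact permutation test, adjusted p = 0.00973), a call lost with the replicate block (permutation of signs within replicate numbers, adjusted p = 0.0615) and in set 2 alone (-0.09, exact permutation test, adjusted p = 0.714).

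EGLN3 is a prolyl hydroxylase that marks hypoxia-inducible factors and is itself a known target of them. It lay between 1.56 and 4.95 CPM in serum-free medium (median 3.75), between 40.8 and 60.3 with TGF-β1 (median 47.5) and between 5.66 and 8.82 with FBS (median 6.68). No ranges overlapped. The rise was 3.75 ± 0.17 in log2 with TGF-β1 (adjusted p = 3.22e-16), the largest log2 rise among the members in that comparison, and 0.93 ± 0.16 with FBS (adjusted p = 1.06e-05). TGF-β1 exceeded FBS by 2.83 (adjusted p = 1.29e-14). EGLN1, the main hydroxylase at normal oxygen, was at 98.6 ± 8.93, 94.1 ± 9.199 and 70.7 ± 8.59 CPM, with no call for TGF-β1 (-0.07, adjusted p = 0.473) and a decrease with FBS (-0.48, adjusted p = 5.75e-06). With total-count scaling the TGF-β1 value of EGLN1 was -0.21 (adjusted p = 0.0186). EGLN3 accounted for 7.41% of EGLN1 and EGLN3 FPKM in serum-free medium, 52.6% under TGF-β1 and 17.3% with FBS. Both rises of the EGLN3 to EGLN1 ratio passed (3.88 and 1.47, exact permutation tests, adjusted p = 0.000247 each).

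Of the 8 tested members known as hypoxia-response genes, 2 were called higher and 3 lower with TGF-β1, near the 31.2% and 33.1% of all genes. With FBS 2 were higher and 6 lower, beside 39.5% and 40.5% of all genes. TGF-β1 against FBS gave 5 higher and 2 lower, beside 36.9% and 36.4%.

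BNIP3 and BNIP3L are mitochondrial receptors for mitophagy. BNIP3L lay between 141 and 155 CPM in serum-free medium (median 149), between 142 and 165 with TGF-β1 (median 155) and between 26.4 and 49.1 with FBS (median 39.4). FBS libraries were far below both other groups, which overlapped. The FBS change was -1.94 ± 0.11 (adjusted p = 8.54e-15), while that of TGF-β1 was 0.06 ± 0.11 (adjusted p = 0.620). BNIP3 went from 121 ± 19.7 CPM to 169.9 ± 13.3 with TGF-β1 (0.49, adjusted p = 0.000242) and to 80.3 ± 15.7 with FBS (-0.59, adjusted p = 1.55e-05). NDRG1, a stress-response gene, was at 61.9 ± 17.8, 79.3 ± 19.7 and 42.6 ± 11.7 CPM and was called lower with FBS (-0.54, adjusted p = 0.00969). With TGF-β1 NDRG1 was not called (0.36, adjusted p = 0.0921). It was called with the replicate block (0.37, adjusted p = 8.19e-06), with set as a covariate (0.37) and in each set alone (0.43 and 0.32). The mean of NDRG1 was higher in set 2 than in set 1 in every condition. With total-count scaling the FBS decrease was -0.30 (adjusted p = 0.156). ANKRD37 was low, at 3.55 ± 0.705, 4.98 ± 0.965 and 2.60 ± 0.673 CPM, higher with TGF-β1 (0.49, adjusted p = 0.0152) and lower with FBS (-0.45, adjusted p = 0.0201). The TGF-β1 call of ANKRD37 was lost with total-count scaling (0.34) and in set 2 alone (0.27). The FBS call was lost without FBS replicate 4 or 7 (-0.37 to -0.38), with total-count scaling (-0.20) and in either set alone (-0.41 and -0.47). CA9, the hypoxia-induced carbonic anhydrase, was barely detected, with 8 reads over the serum-free libraries, 6 with TGF-β1 and 25 with FBS, and was not tested.

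STC1, STC2 and ADM encode secreted products. STC1, encoding the glycoprotein stanniocalcin, lay between 0.141 and 1.18 CPM in serum-free medium (median 0.755), between 0.0709 and 0.747 with TGF-β1 (median 0.343) and between 73.4 and 110.2 with FBS (median 103). Only the FBS libraries were high. The FBS rise was 7.09 ± 0.26 in log2 (adjusted p = 8.69e-19). STC1 passed the filter on low counts in full only through FBS, so this p-value is descriptive only. The small decrease with TGF-β1 (-0.84, adjusted p = 0.0429) rested on 50 reads against 106 and was lost without serum-free replicate 2, 3, 7 or 8 or any of TGF-β1 replicates 4 to 8 (-0.69 to -0.86). STC2, its paralogue, lay between 58.9 and 162 CPM in serum-free medium (median 87.4), between 8.63 and 19.7 with TGF-β1 (median 14.4) and between 11.7 and 22.9 with FBS (median 12.9). Serum-free libraries were above all treated libraries, which overlapped each other. STC2 fell by 2.66 ± 0.22 with TGF-β1 (adjusted p = 6.57e-11) and by 2.67 ± 0.22 with FBS (adjusted p = 1.94e-11). With TGF-β1 the fall was -3.52 in set 1 and -1.85 in set 2 (set-by-treatment term, adjusted p = 5.51e-05). STC1 held 0.861% of the STC1 and STC2 FPKM in serum-free medium, 3.20% under TGF-β1 and 86.9% with FBS. The rise of that ratio with TGF-β1 (1.77, exact permutation test, adjusted p = 0.0178) was 0.51 in set 2 alone (exact permutation test, adjusted p = 0.534).

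ADM, which encodes the vasodilator peptide adrenomedullin, went from 60.2 ± 16.6 CPM to 152 ± 16.2 with FBS (1.34, adjusted p = 8.79e-10) and was at 60.8 ± 8.06 with TGF-β1 (0.01, adjusted p = 0.932). The pooled TGF-β1 value of ADM hid opposite changes, with 0.44 for set 1 (adjusted p = 0.00665) against -0.39 for set 2 (adjusted p = 0.0116), and the set-by-treatment term passed (adjusted p = 0.00490). PPP1R3C, a subunit that brings a phosphatase to glycogen and favours its synthesis, lay between 17.5 and 78.3 CPM in serum-free medium (median 43.2), between 1.67 and 3.92 with TGF-β1 (median 2.41) and between 0 and 0.936 with FBS (median 0.368). The 3 ranges were separate. PPP1R3C fell by 4.09 ± 0.34 with TGF-β1 (adjusted p = 7.64e-11) and by 6.61 ± 0.41 with FBS (adjusted p = 4.59e-14).

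**Figure D3:**
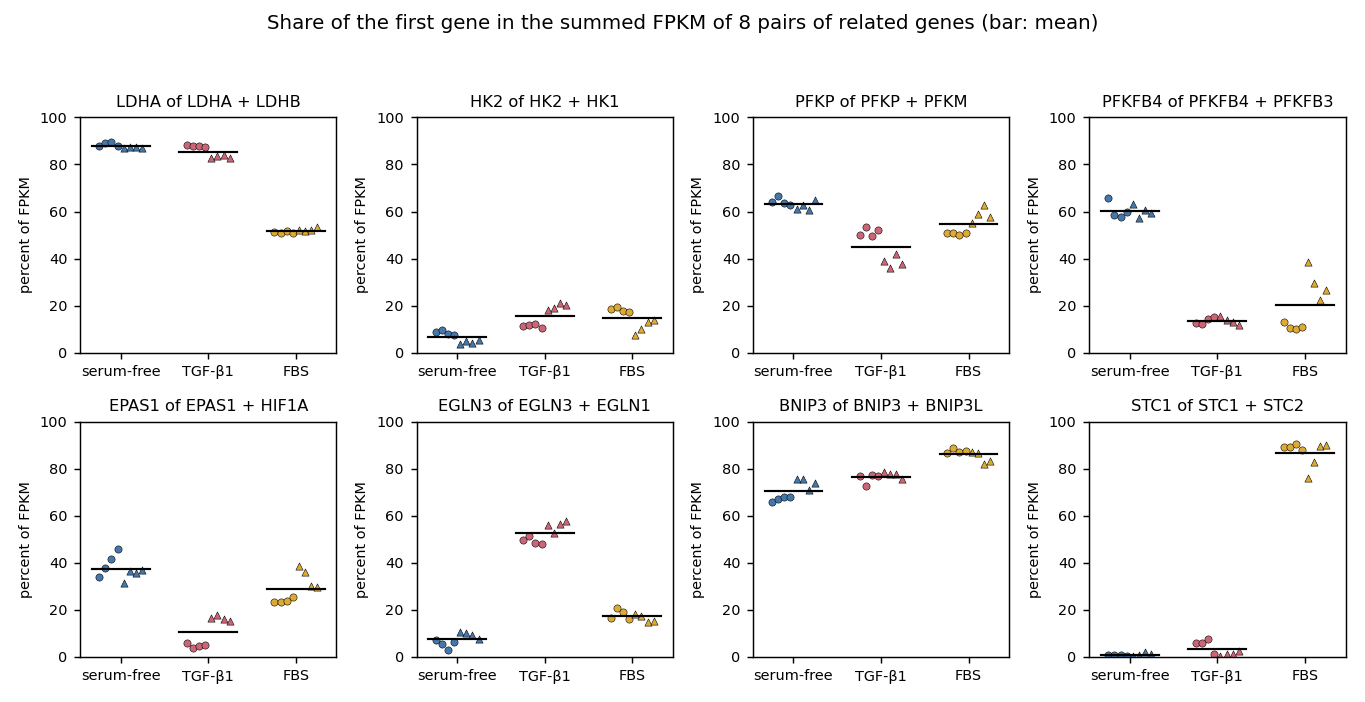
Share of the first-named gene in the summed FPKM of 8 pairs of related members, in percent, for 8 libraries per condition (circles: library numbers 5 to 8, triangles: 9 to 12, bar: mean). LDHA drops from 87.9% in serum-free medium to 51.7% with FBS, EGLN3 climbs to 52.6% with TGF-β1, and STC1 reaches 86.9% with FBS.

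Among the other pairs tested, the HK2 to HK1 ratio rose in both treatments (1.42 and 1.31 in log2, exact permutation tests, adjusted p = 0.000247 and 0.00132) and did not pass between them over all libraries (0.11, exact permutation test, adjusted p = 0.676). Within sets the HK2 to HK1 ratio differed between TGF-β1 and FBS in opposite directions (-0.78 in set 1 and 1.00 in set 2, exact permutation tests, adjusted p = 0.0321 each). Its rise with TGF-β1 was 0.50 in set 1 and 2.33 in set 2. PFKP fell relative to PFKM in both (-1.09 and -0.51, exact permutation tests, adjusted p = 0.000247 and 0.00117), although with FBS set 2 alone gave -0.22 (exact permutation test, adjusted p = 0.154). Its lower ratio under TGF-β1 than under FBS (-0.57, exact permutation test, adjusted p = 0.0102) was lost with the replicate block (permutation of signs, adjusted p = 0.110), and was 0.04 in set 1 and -1.18 in set 2. ALDOC fell relative to ALDOA with TGF-β1 (-1.04) and with FBS (-5.09) (exact permutation tests, adjusted p = 0.0046 and 0.000247). BNIP3 rose relative to BNIP3L by 0.44 and 1.38 (exact permutation tests, adjusted p = 0.00252 and 0.000247).

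**Figure D4:**
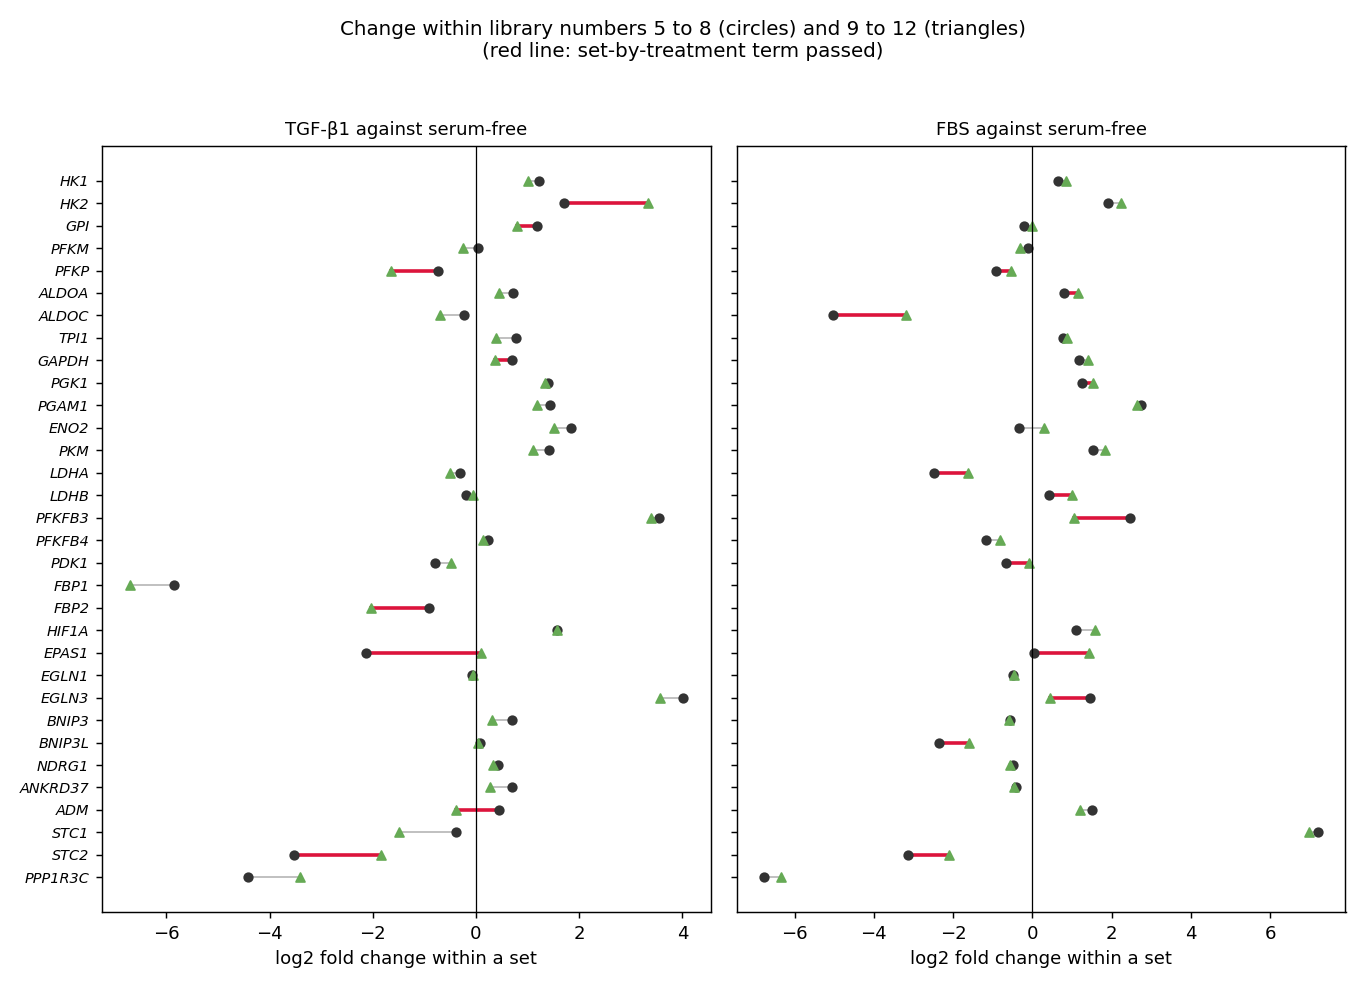
Log2 fold change within library numbers 5 to 8 (circles) and 9 to 12 (triangles) for TGF-β1 (left) and FBS (right) against serum-free medium, 4 libraries per set and condition. A red line joins the points where the set-by-treatment term passed at an adjusted p under 0.05. EPAS1 with TGF-β1 (-2.12 and 0.09) has the widest gap among the red lines.

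The set-by-treatment term passed for 8 of the 32 members with TGF-β1 against serum-free medium, beside 10.3% of all genes. It passed for 12 with FBS against serum-free medium, beside 22.4%, and for 17 between TGF-β1 and FBS, beside 23.9%. Those with TGF-β1 were HK2, GPI, PFKP, GAPDH, FBP2, EPAS1, ADM and STC2. GPI (1.18 and 0.80) and GAPDH (0.70 and 0.37) kept their direction in both sets. With FBS, ALDOC (-5.03 and -3.19), BNIP3L (-2.35 and -1.59) and EGLN3 (1.46 and 0.45) differed in size between the sets. What differs between the sets was not tested.

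The neighbouring steps of glucose handling were read from further lists of genes. Their counts stand beside 31.2% of all genes called higher and 33.1% lower with TGF-β1, 39.5% and 40.5% with FBS, and 36.9% and 36.4% for TGF-β1 against FBS. Of 7 tested transporters of sugar and lactate, 4 were higher and 1 lower with TGF-β1, and 3 were higher and 3 lower with FBS, the latter near the share of all genes. SLC2A1, the basal glucose transporter, went from 100.3 ± 8.56 CPM to 181 ± 13.4 with TGF-β1 (0.85, adjusted p = 2.04e-11) and to 23.5 ± 1.91 with FBS (-2.09, adjusted p = 1.51e-19). SLC2A10, another sugar carrier, fell with FBS (-1.74, adjusted p = 5.57e-09). SLC16A3, which exports lactate, rose from 3.22 ± 1.65 CPM to 53.1 ± 8.28 with TGF-β1 (4.04, adjusted p = 3.66e-10) and to 13.4 ± 8.85 with FBS (2.05, adjusted p = 7.66e-06). SLC16A7, a related carrier, rose by 2.85 with TGF-β1 (adjusted p = 9.79e-07) and by 3.85 with FBS (adjusted p = 2.77e-09). SLC16A1, another lactate carrier, named after its values were seen, went the other way with TGF-β1, from 211 ± 17.8 to 99.6 ± 5.81 CPM (-1.09, adjusted p = 5.22e-12), and was at 191 ± 26.5 with FBS (-0.15, adjusted p = 0.0848).

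Of 15 other glycolytic and gluconeogenic enzymes, 7 were higher and 6 lower with TGF-β1, and 7 higher and 5 lower with FBS. ENO1, the general enolase, was at 1252 ± 184 CPM in serum-free medium, 1196 ± 69.2 under TGF-β1 (-0.07, adjusted p = 0.535) and 2731 ± 355 with FBS (1.12, adjusted p = 1.50e-11). PGAM2, the muscle mutase, rose with TGF-β1 (2.14, adjusted p = 2.01e-08) and was not called with FBS (-0.21, adjusted p = 0.432). BPGM, which diverts an intermediate to a bisphosphate, fell by 1.19 with TGF-β1 (adjusted p = 2.44e-10) and by 3.27 with FBS (adjusted p = 5.17e-19). PC, the carboxylase that feeds pyruvate into gluconeogenesis, fell by 1.37 and 1.79 (adjusted p = 9.19e-12 and 1.32e-14). PGM2, a phosphopentomutase, rose to 59.7 ± 7.15 CPM with FBS from 9.85 ± 1.00 (2.60, adjusted p = 5.42e-17).

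A list of 12 genes covered mitochondrial pyruvate carriers and pyruvate dehydrogenase with its kinases and phosphatases. Of these 6 were higher and 2 lower with TGF-β1, and 8 higher and 3 lower with FBS. Between TGF-β1 and FBS 2 were higher and 8 lower. PDHA1, a core subunit of pyruvate dehydrogenase, was at 65.6 ± 3.38, 75.3 ± 6.53 and 238 ± 10.2 CPM (0.20, adjusted p = 0.00448, and 1.86, adjusted p = 8.67e-20). The inhibitory kinase PDK2 fell in both treatments (-0.97, adjusted p = 0.000124, and -3.85, adjusted p = 1.36e-14), whereas PDK3 rose (1.46, adjusted p = 2.67e-07, and 1.93, adjusted p = 7.98e-10). PDK4 varied widely in serum-free medium (132 ± 120.3 CPM) and was at 0.452 ± 0.235 with FBS (-8.15, adjusted p = 1.30e-06).

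The pentose phosphate branch leaves glycolysis at glucose phosphate to make NADPH and ribose. Of 5 tested genes 3 were higher and 2 lower with TGF-β1, and 4 higher and 1 lower with FBS. PGD, which makes NADPH, rose by 1.46 with TGF-β1 and by 0.68 with FBS (adjusted p = 1.42e-11 and 3.34e-06). RPIA and RPE, further enzymes of this branch, were higher with FBS than with TGF-β1 (-1.41 for each as TGF-β1 against FBS, adjusted p = 8.21e-12 and 9.26e-14).

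Of 13 genes of glycogen metabolism 5 were higher and 4 lower with TGF-β1, 5 higher and 7 lower with FBS, and 9 higher and 4 lower between TGF-β1 and FBS. PPP1R3B, another glycogen-targeting subunit, fell by 1.29 with TGF-β1 (adjusted p = 3.83e-11) and by 2.64 with FBS (adjusted p = 1.27e-17), and PPP1R3E fell with FBS (-1.86, adjusted p = 2.68e-10). GYS1, the glycogen synthase, rose to 76.7 ± 18.8 CPM with FBS from 22.02 ± 3.11 (1.80, adjusted p = 7.58e-13). PYGB, a phosphorylase that breaks glycogen down, rose with TGF-β1 (0.73, adjusted p = 5.41e-08) and fell with FBS (-1.53, adjusted p = 1.47e-14).

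Of 14 other regulators of hypoxia-inducible factors 4 were higher and 4 lower with TGF-β1, and 5 higher and 6 lower with FBS. P4HTM, a transmembrane prolyl hydroxylase, fell from 10.4 ± 1.19 to 1.78 ± 0.833 CPM with TGF-β1 (-2.55, adjusted p = 4.39e-11) and was at 10.3 ± 2.13 with FBS (-0.01, adjusted p = 0.970). CITED2, which competes with these factors for a coactivator, rose in both (1.51, adjusted p = 9.28e-11, and 1.17, adjusted p = 3.87e-09). ARNT2, a dimer partner, fell in both (-0.69, adjusted p = 0.000605, and -1.42, adjusted p = 1.36e-08), and the ubiquitin ligase scaffold CUL2 rose (0.35, adjusted p = 0.0039, and 1.21, adjusted p = 3.74e-11).

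Of 30 further genes known as targets of these factors 16 were higher and 3 lower with TGF-β1, 12 higher and 14 lower with FBS, and 24 higher and 4 lower between TGF-β1 and FBS. The list medians were 0.37, -0.19 and 0.89, beside -0.03, -0.04 and 0.01 over all genes. VEGFA, the angiogenic growth factor, went from 77.6 ± 35.8 CPM to 557 ± 37.0 with TGF-β1 (2.84, adjusted p = 6.38e-12) and to 207 ± 30.3 with FBS (1.42, adjusted p = 4.06e-07). MXI1, a MYC antagonist, fell in both (-1.56, adjusted p = 2.86e-14, and -3.62, adjusted p = 2.39e-21). TMEM45A rose with TGF-β1 (0.63, adjusted p = 3.62e-05) and fell with FBS (-2.85, adjusted p = 4.34e-17). ANGPTL4 varied widely, at 562 ± 558, 413 ± 415 and 4.23 ± 1.42 CPM, and against serum-free medium only its fall with FBS was called (-7.06, adjusted p = 1.59e-06; with TGF-β1 -0.45, adjusted p = 0.652).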

How the data were processed

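RNA sequencing of 24 libraries, 8 per condition, was analysed from the deposited tables. The deposited count table gives whole-number reads per gene, not normalized, per the file headers. In the deposited FPKM table each count is divided by the length of its gene and by a size of its library that the authors set. The sources used here do not give the aligner, counting program, genome build, annotation or strand setting.

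The counts were tested with edgeR 4.0.16 in R 4.3.3 (filterByExpr, TMM, quasi-likelihood F-test, 1 coefficient per condition over all libraries, Benjamini-Hochberg adjustment over 13308 genes, threshold 0.05). Standard errors came from the same fit. Set-by-treatment terms were tested in the same way. Ratios of 9 pairs of members (log2 of counts plus 0.5) were tested in 3 comparisons by exact permutation with scipy 1.17.1, adjusted over 27 tests. DESeq2 1.42.0, and limma 3.58.1 on log2(FPKM + 0.1) and log2(FPKM + 1), were alternatives. The scripts were tested on simulated data. Each list was described by counts and a median, without a test.

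Members, lists and alternatives were chosen with earlier results of these data known. All members are named. Values of every condition are given for members called with a log2 fold change of at least 1.5 in size and for HIF1A, EPAS1, GAPDH, PKM, LDHA and LDHB. From each further list up to 4 called genes with the largest change and at least 5 CPM are named, plus SLC2A1, SLC16A3, VEGFA and ENO1. A few genes that this rule names are not reported here. The numbered copies of LDHA and PGK1 were outside this rule and were chosen after the table was seen.

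The conditions share replicate numbers in the labels. Same-numbered libraries deviated from their group means together, with correlations of 0.177 to 0.362, 0.115 to 0.429 and 0.103 to 0.332 in the 3 comparisons. These deviations still hold the difference between the sets, so they cannot show pairing beyond set, and the labels do not state any pairing. The main tests therefore treat the libraries as unpaired, and the replicate block, which pairs them by number, was an alternative. The pairs with PFKL and a search of promoter sequence were not run. Intervals on read ratios are 95% and cover counting error only.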

Additional observations from a re-analysis of the deposited data

Results flagged for a closer look

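Of 99 groups of 8 libraries examined (33 members in 3 conditions), 4 had a library far from the others, with a gap to its nearest neighbour above 0.526 of the group's range. Chance alone flags about 1 in 20 such groups. STC2 in serum-free replicate 4 was at 162 CPM, with the next highest library at 105. STC2 in FBS replicate 5 was at 22.9 CPM, with the next at 16.3. The direction and call of STC2 against serum-free medium were the same without either library. CA9 in FBS replicate 5 was at 0.544 CPM, with the next at 0.246, in a gene with 25 reads over all FBS libraries. FBP1 in FBS replicate 7 was at 0.0546 CPM, which is 1 read, and the other FBS libraries had none.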

How the results depend on the processing

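The counts of members called stayed within 1.5 times in each of the 34 alternatives run per count, with 14 to 17 higher and 7 to 12 lower for TGF-β1 against serum-free, 14 to 15 and 11 to 15 for FBS against serum-free, and 14 to 19 and 8 to 13 for TGF-β1 against FBS. With the replicate block they were 16 and 9, 15 and 15, and 18 and 11. Apart from the 3 members (HIF1A, NDRG1, PDK1) and 2 ratios (EPAS1 to HIF1A and PFKP to PFKM) named in the report, the replicate block changed no call of a member or ratio. Of 96 log2 fold changes of members, 68 kept direction and call in every alternative, and of 27 ratios 20 did. With set 2 alone, EPAS1 (0.092) and ADM (-0.39) reversed in TGF-β1 against serum-free. With set 1 alone, HK2 (-0.20), PFKP (0.18), TPI1 (0.0091), PGK1 (0.14), STC2 (-0.38), the HK2 to HK1 ratio (-0.78) and the PFKP to PFKM ratio (0.037) reversed in TGF-β1 against FBS. With total-count scaling, PFKM (0.044) reversed in FBS against serum-free, and HK1 (-0.036) and PFKM (-0.29) in TGF-β1 against FBS. The causes were not tested. Depth limits CA9 in every condition, FBP1 with TGF-β1 and FBS, FBP2 with FBS, and STC1 outside FBS. Calls near the threshold were also lost in single fits: LDHA and STC1 (TGF-β1 against serum-free), PFKM and ANKRD37 (FBS against serum-free) and HK2 (TGF-β1 against FBS) without the filter on low counts, LDHA (TGF-β1 against serum-free) and PFKP (TGF-β1 against FBS) with only the 16 libraries compared, HK2 with DESeq2, and STC1, HK2 and TPI1 with limma on FPKM. The removal of FBS replicates 5 and 6 and the summing of LDHA copies were chosen after seeing the data.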
